A study of Homo sapiens with 6 samples.

Results

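MicroRNAs of the miR-199, miR-214, miR-143 and miR-145 families are best known from mesenchymal cells such as fibroblasts, smooth muscle cells and, in the liver, hepatic stellate cells. Probes for 6 of these mature microRNAs were picked by their miRBase accession from the 1212 probes of a microRNA array, by a rule that uses no measured value, although earlier results of these data were known when they were picked. They were miR-199a-5p (MIMAT0000231), miR-199a-3p (MIMAT0000232), miR-199b-5p (MIMAT0000263), miR-214-3p (MIMAT0000271), miR-143-3p (MIMAT0000435) and miR-145-5p (MIMAT0000437). All 6 had a value on each of the 6 arrays. The arrays measured Huh7, an established line of transformed hepatocyte-like cells from a human hepatocellular carcinoma, grown here as a single cell type without the stroma of a tumour. The 3 control arrays were Huh7 without metformin and the 3 metformin arrays were Huh7 given 10 mM metformin, a biguanide used against diabetes, each for 72 h. Whether replicates were separate cultures is not labelled, and p-values here therefore cover only the spread among these samples, which could be technical.

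A mature microRNA is cut from a hairpin precursor and guides the silencing complex to messenger RNAs, mainly through the seed, bases 2 to 8 from its 5′ end. Both arms of the miR-199a hairpin act as microRNAs, and miR-199a-3p is often reported to be scarce in hepatocellular carcinoma. miR-199a and miR-214 share a long primary transcript, DNM3OS, that is active in mesenchyme and in stellate cells as they turn into matrix-producing cells. miR-143 and miR-145 also share a primary transcript and promote the contractile state of smooth muscle. The comparison asked whether these microRNAs change in abundance in hepatoma cells exposed to metformin.

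The mature sequences of 5 of the 6 were found by name in RefSeq (GRCh38.p14). They are shown because the seed separates these 5 into target groups and because one probe cannot tell a pair of microRNAs apart. The seed is in capitals and each sequence runs 5′ to 3′.
hsa-miR-199a-5p: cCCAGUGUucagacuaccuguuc
hsa-miR-199a-3p: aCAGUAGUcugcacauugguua
hsa-miR-199b-3p: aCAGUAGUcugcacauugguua
hsa-miR-214-3p: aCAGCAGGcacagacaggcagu
hsa-miR-143-3p: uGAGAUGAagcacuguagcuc
hsa-miR-145-5p: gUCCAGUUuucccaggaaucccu
The 5 members shown had 5 different seeds. The seed of miR-199a-3p was also that of hsa-miR-199b-3p and hsa-miR-3129-5p among the 2370 named human mature microRNAs of the RefSeq table. The seed of miR-214-3p was also that of hsa-miR-761 and hsa-miR-3619-5p, and the seed of miR-143-3p that of hsa-miR-4770 and hsa-miR-6088. The seeds of miR-199a-5p and miR-145-5p were found in 0 other named human microRNAs of that table. It has no entry for miR-199b-5p, so the seed of this member was not compared. The bases of the miR-199a-5p seed do occur in the MIR199B hairpin, the source of miR-199b-5p. A seed shared by these members is therefore not excluded. miR-199a-3p and miR-199b-3p had the same base at 22 of 22 positions. The probe for miR-199a-3p carries a second accession in the deposited table, MIMAT0004563, to which the tables used here give no name. It is called the miR-199a-3p probe below, and RNA with the same sequence from MIR199B cannot be told apart from it.

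The hairpin genes of the members lie at several places in the genome. MIR214 (mature arm at chr1:172138816-172138837, minus strand) and MIR199A2 (miR-199a-5p at chr1:172144592-172144614 and miR-199a-3p at chr1:172144554-172144575, minus strand) lie within the spans of the noncoding gene DNM3OS and of DNM3, which encodes a dynamin. The hairpins of MIR214 and MIR199A2 have 5627 bases between them. MIR199A1 gives the same miR-199a arms (miR-199a-5p at chr19:10817469-10817491 and miR-199a-3p at chr19:10817429-10817450, minus strand) and lies within the span of DNM2, another dynamin gene. MIR199B, the source of miR-199b-5p (hairpin at chr9:128244721-128244830, minus strand), lies within the span of the dynamin gene DNM1. MIR143 (miR-143-3p at chr5:149428978-149428998, plus strand) and MIR145 (miR-145-5p at chr5:149430661-149430683, plus strand) lie within the span of the noncoding gene CARMN, with 1622 bases between their hairpins. The hairpins of the linked MIR214 and MIR199A2 genes, with the arms measured here in capitals, show that miR-199a-5p and miR-199a-3p are opposite arms of a single precursor.
MIR214: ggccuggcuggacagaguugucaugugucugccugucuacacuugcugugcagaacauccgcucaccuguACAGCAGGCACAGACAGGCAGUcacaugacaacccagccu
MIR199A2: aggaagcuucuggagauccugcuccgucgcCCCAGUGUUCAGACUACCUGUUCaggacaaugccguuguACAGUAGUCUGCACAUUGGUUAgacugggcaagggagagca

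All 6 stromal probes gave weak signals in Huh7 cells, mostly in the crowded middle of each array's range. The exceptions at the bottom of their arrays were miR-143-3p on metformin replicate 1, with 2.53% of the array's probes below it, and miR-199a-3p on control replicate 2, with 4.86% below it. Their 36 values ran from 7.20 to 39.4 intensity units, on arrays whose medians lay between 22.8 and 24.1 and whose highest value was 19416. No value reached 2 times the median of its array, and the ratio to that median ran from 0.31 (miR-143-3p on metformin replicate 1) to 1.73 (miR-145-5p on metformin replicate 2). Of the 36 values, 16 lay below the median of their array and 8 above its 75th percentile, which was between 31.3 and 34.4. Only 13 were more than 5 times the lowest value of their array, which lay between 4.70 and 6.20. Neither a background correction nor a detection call is known for them, so these values do not show whether any of the 6 microRNAs was above background. Probes differ in brightness for reasons other than abundance, so the 6 are not ranked against each other. In RNA from a whole culture, fewer cells making a microRNA and less of it per cell cannot be told apart.

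**Figure D1:**
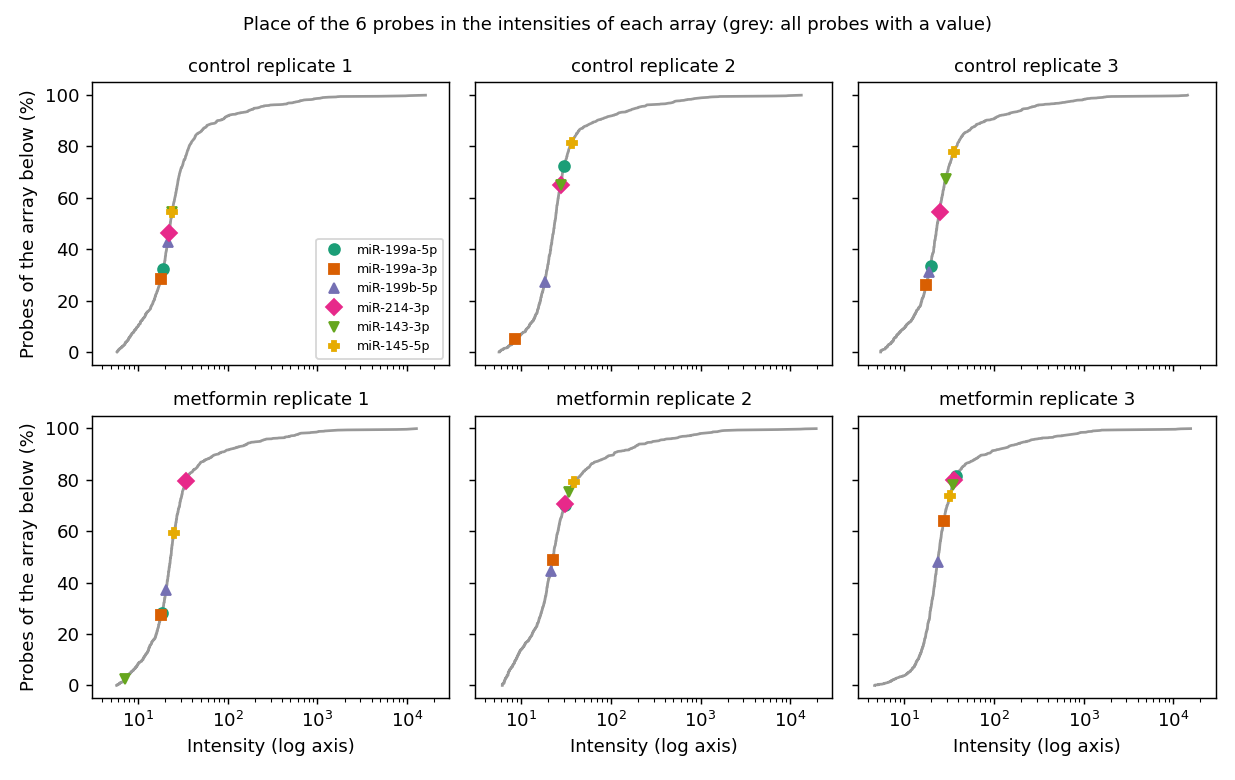
Each panel is 1 array, with intensity on a log axis and the percent of that array's probes below it on the other; the grey line is all probes with a value and the symbols are the 6 stromal probes, some of which overlap. All 36 symbols lie between 7.20 and 39.4, far from the highest value of 19416 on any array.

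None of the 6 stromal microRNAs differed between metformin and control arrays by enough to pass the test. By limma on log2 intensity, with Benjamini-Hochberg adjustment over the 1038 probes measured on all arrays, 0 of 6 passed an adjusted p of 0.05, against a background of 0% (0 of 1038). At an unadjusted p under 0.05 there were again 0 of 6, against 2.70% of all probes (28 of 1038), and an unmoderated equal-variance test put 35 probes under that level, miR-214-3p among them, and 0 past adjustment. The group mean was higher with metformin for 5 members and lower for 1. The median of the 6 log2 differences was 0.23, against 0.03 over all probes, of which 52.9% were higher. For 2 members, miR-199a-3p and miR-214-3p, every metformin value lay above every control value, where 7.61% of all probes had groups that do not overlap in either direction and 4.43% did so with metformin higher. On metformin replicate 3, 5 of the 6 members had their highest value, as did 16.3% of all probes. After centring on array medians these were 4 of 6 and 11.1%. Without that array 4 of 6 were higher with metformin and the median was 0.09. Other arrays mattered too. Also 4 of 6 were higher without control replicate 1 (median 0.21) or metformin replicate 2 (0.21), and 6 of 6 without metformin replicate 1 (0.40).

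**Figure D2:**
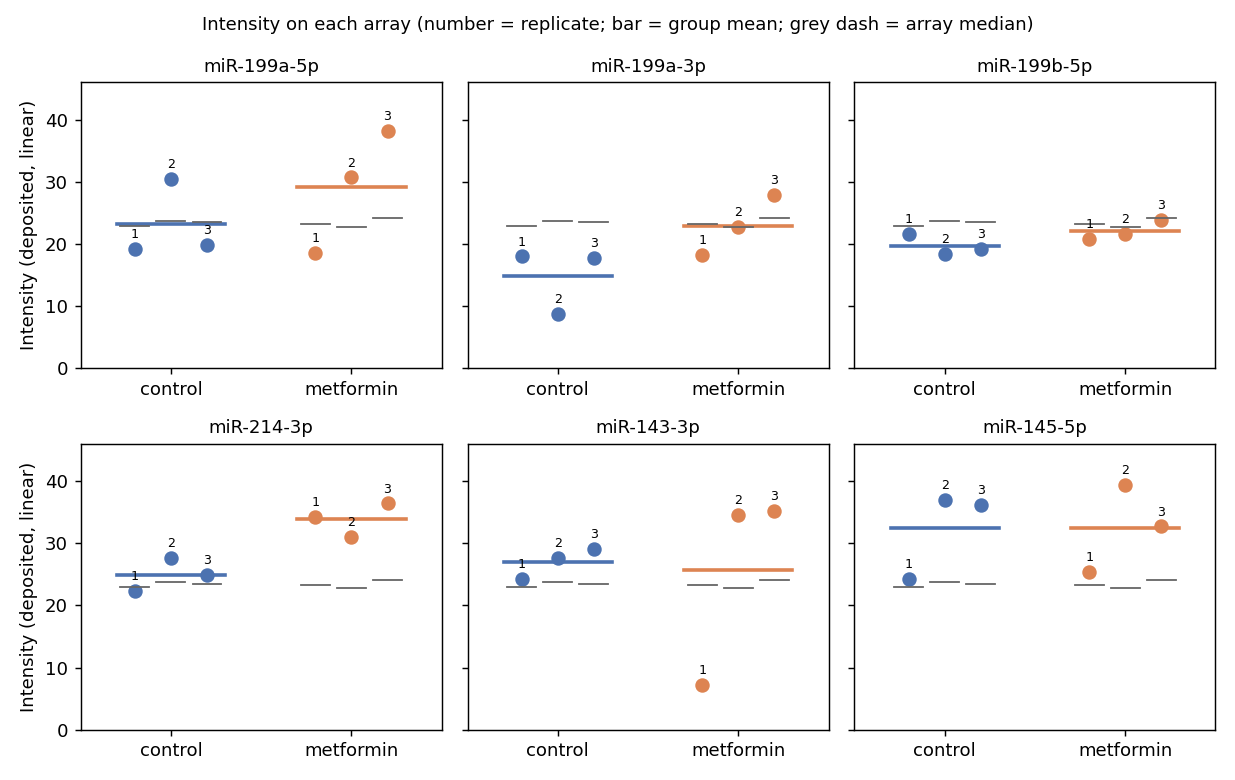
Deposited intensity (linear axis) of each stromal probe on the 3 control and 3 metformin arrays, numbered by replicate, with the group mean as a bar and the median of that array as a grey dash. The metformin points of miR-214-3p (31.0 to 36.4) lie above its control points (22.3 to 27.6), and miR-143-3p has 1 low metformin point at 7.20.

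miR-214-3p, known for its part in fibrosis, was brighter on every metformin array than on any control array. Its intensities were 22.3, 27.6 and 24.9 on control replicates 1 to 3 and 34.2, 31.0 and 36.4 on metformin replicates 1 to 3. The highest control value, 27.6, lay below the lowest metformin value, 31.0, so the groups did not overlap. The means were 24.9 ± 2.65 in control and 33.9 ± 2.72 with metformin (SD, n = 3). The log2 difference was 0.44 (SE 0.22, 95% interval -0.06 to 0.95), or 1.36-fold, with a limma adjusted p = 0.991. It therefore did not pass the threshold. The interval, which is not adjusted for the number of probes, excluded a 2-fold rise of this intensity narrowly, with an upper limit of 1.93-fold. With the replicate block the SE was larger, at 0.26, so the exclusion is stated for the main fit only. Its difference was 0.46 within the first 3 arrays of the deposit and 0.43 within the last 3, where a single array stands for 1 of the groups. The sign of both was fixed in advance, because the groups do not overlap. The order of the deposit is not a labelled batch.

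miR-199a-3p shares a precursor with miR-199a-5p and is known to target mTOR and MET. Its probe read 18.0, 8.70 and 17.7 on control replicates 1 to 3 and 18.3, 22.7 and 27.9 on metformin replicates 1 to 3. The groups did not overlap, but metformin replicate 1 stood only just above the control values of 18.0 and 17.7. Control replicate 2 was the lowest of the 6 by 2.03-fold to the next, with 4.86% of that array's probes below it. The means were 14.8 ± 5.29 and 23.0 ± 4.81 (SD, n = 3), and the log2 difference of 0.69 (SE 0.34, 95% interval -0.11 to 1.49) was 1.61-fold, with a limma adjusted p = 0.991. Without control replicate 2 the difference was 0.34. After quantile normalization the groups of this probe overlapped, which left miR-214-3p as the single member whose groups did not, against 8.09% of all probes. The control replicate 1 value is the 1 member value deposited with more than 1 decimal, a format that 201 values of that array have and none of the other arrays.

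miR-199a-5p, the opposite arm, overlapped between the groups. Its values were 19.2, 30.4 and 19.8 in control and 18.6, 30.7 and 38.2 with metformin, in replicate order. Metformin replicate 1 was the lowest of all 6 arrays and metformin replicate 3 the highest. The means were 23.1 ± 6.30 and 29.2 ± 9.89 (SD, n = 3), with a log2 difference of 0.31 (SE 0.34, 95% interval -0.48 to 1.09; limma adjusted p = 0.991). Within the first 3 arrays of the deposit the difference was -0.38 and within the last 3 it was 0.79, but each of these sets has a single array in 1 group. With each array left out in turn it stayed between 0.08 and 0.60. The arms of the miR-199a hairpin were farther apart over the arrays than the median probe was from either, mostly through 1 array. On control replicate 2 miR-199a-3p read 8.70, with 4.86% of that array's probes below it, and miR-199a-5p read 30.4. After each probe was centred on its own mean, their log2 values differed by a root mean square of 0.61 over 6 arrays, against medians over other probes of 0.51 from miR-199a-5p and 0.57 from miR-199a-3p.

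miR-199b-5p, from the paralogous hairpin on chromosome 9, was the steadiest member. It measured 21.6, 18.4 and 19.2 in control and 20.8, 21.6 and 23.8 with metformin. All values lay within 1.29-fold of each other and the groups overlapped at control replicate 1. The means were 19.7 ± 1.67 and 22.1 ± 1.55 (SD, n = 3), and the log2 difference was 0.16 (SE 0.21, 95% interval -0.33 to 0.66; limma adjusted p = 0.991), which excludes a 2-fold change of this intensity in either direction. All 6 values lay below the median of their array. Whether a shared background held them together was not tested.

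miR-143-3p and miR-145-5p, which act together in smooth muscle, read differently from each other on 1 array. miR-143-3p measured 24.2, 27.6 and 29.1 in control and 7.20, 34.5 and 35.2 with metformin, in replicate order. On metformin replicate 1 it lay 3.36-fold below its next lowest value and only 2.53% of that array's probes lay lower, whereas the other metformin arrays lay above all control arrays. The means were 27.0 ± 2.51 and 25.6 ± 16.0 (SD, n = 3), with a log2 difference of -0.38 (SE 0.58, 95% interval -1.74 to 0.97; limma adjusted p = 0.991). Without metformin replicate 1 the difference turned to 0.37 (limma adjusted p = 0.883, in a range of 0.883 to 0.999 over 18 alternatives), so this array alone sets the direction. Other probes had such single low values too: 17 of the 1038 probes (1.64%) were more than 2-fold lower on metformin replicate 1 than on every other array, and between 1 and 34 probes were so on the other arrays. The closest profiles to miR-143-3p, by the smallest root-mean-square difference of centred log2 values over 6 arrays, were those of MIMAT0004766 and MIMAT0000436 (0.23 for both). Both were also low on metformin replicate 1, at 8.0 and 7.9. Their choice as nearest to a profile with that low value largely fixed this in advance, so it is no separate result.

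miR-145-5p gave the most even group means. It measured 24.2, 37.0 and 36.1 in control and 25.4, 39.4 and 32.7 with metformin. Replicate 1 was the lowest array in each group, and the groups overlapped throughout. The means were 32.4 ± 7.14 and 32.5 ± 7.0 (SD, n = 3), with a log2 difference of 0.01 (SE 0.28, 95% interval -0.65 to 0.66; limma adjusted p = 0.996). In the main fit the interval excluded a 2-fold change of this intensity, as it did for miR-199b-5p and, narrowly, for miR-214-3p. These were 3 of the 6 members, against 570 of all 1038 probes. The centred profiles of miR-145-5p and miR-143-3p differed by a root mean square of 0.64. By closeness to miR-143-3p, miR-145-5p ranked 128 of 1037 other probes (median distance 0.84), whereas by closeness to miR-145-5p, miR-143-3p ranked 821 (median distance 0.43).

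**Figure D3:**
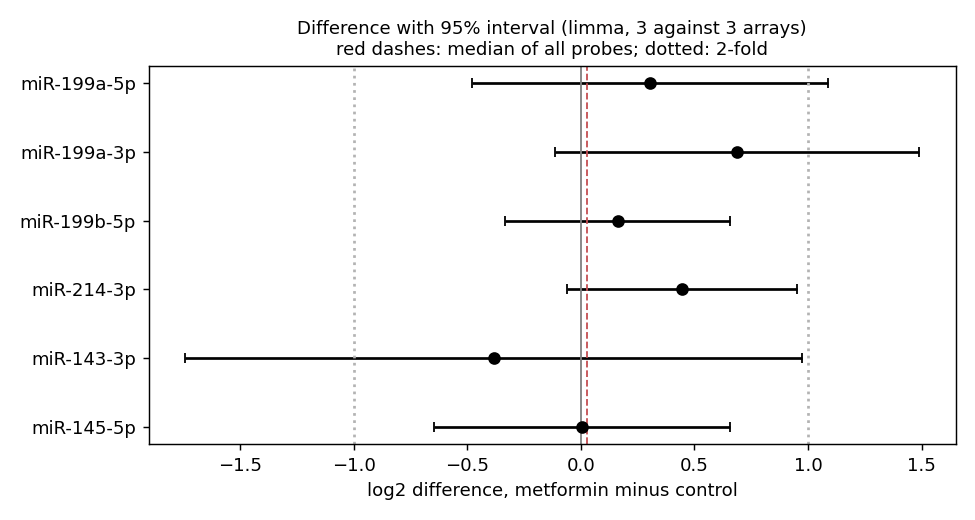
Log2 difference (metformin minus control) of each stromal probe with its unadjusted 95% interval from limma, 3 against 3 arrays. All 6 intervals include 0, the widest is that of miR-143-3p (-1.74 to 0.97), and the red dashes mark the median over all probes at 0.03.

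Over these arrays, the distance between a pair of linked members is the same from either side. Its rank among other probes differs, because each member has its own distances to them. The centred profiles of miR-214-3p and miR-199a-3p differed by a root mean square of 0.47, mostly through the low miR-199a-3p value on control replicate 2. Those of miR-214-3p and miR-199a-5p differed by 0.34. By closeness to miR-214-3p, miR-199a-3p and miR-199a-5p ranked 633 and 329 of 1037 other probes, whose median distance was 0.43. In the other direction, miR-214-3p ranked 286 by closeness to miR-199a-3p (median distance 0.57) and 80 by closeness to miR-199a-5p (median distance 0.51). These are descriptions over 6 arrays, and a flat profile is close to any other flat profile. The spread of the members within a group (median SD 0.39 on the log2 scale) was close to the median of all probes (0.38).

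**Figure D4:**
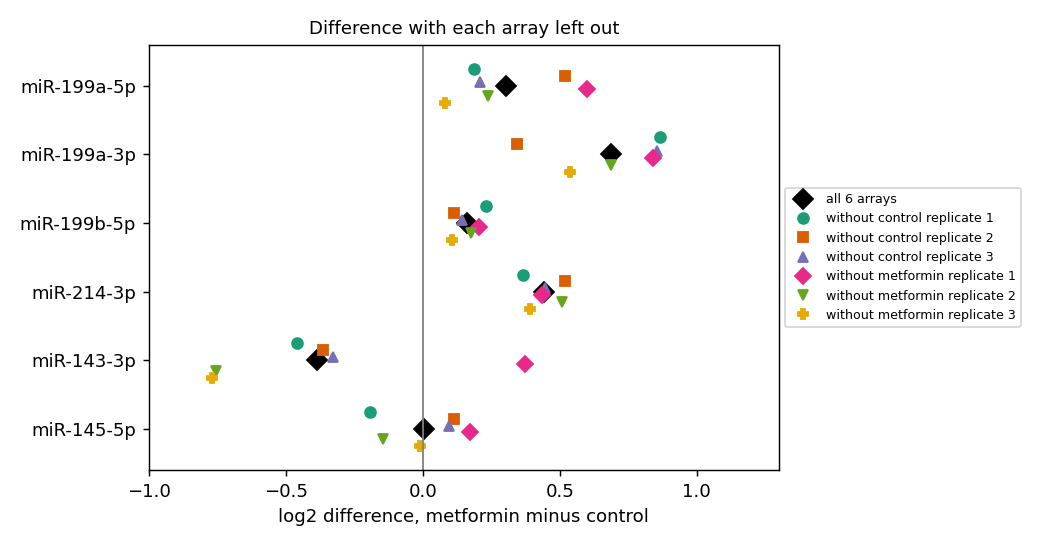
Log2 difference (metformin minus control) of each stromal probe with all 6 arrays (black diamonds) and with each array left out (coloured symbols). miR-214-3p stays between 0.37 and 0.52, miR-143-3p moves from -0.38 to 0.37 without metformin replicate 1, and miR-145-5p lies on both sides of 0.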

How the data were processed

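The deposited table gives linear intensity values, taken as processed by the authors because all exceed 0 and array medians nearly match. It lists probes by accession only, and the members' names came with their selection. Total RNA was labelled with Hy5, per the labels' protocols. How the arrays were scanned, corrected for background and scaled, and why cells are null, is not stated. No pseudocount was added before taking log2. The 1038 probes complete on 6 arrays were fitted with limma 3.58.1 in R 4.3.3 (lmFit, eBayes, two-sided), with no covariates. Other scalings, filters, variance models, blocks and left-out arrays served as alternatives. The procedure was tested on data simulated with independent normal noise for each probe. No array effects or drops on single arrays were simulated, so that test does not cover them. Each array had between 1099 and 1209 values, and 3 arrays per group limit the precision. The members' rule uses accessions only, but members and lists were chosen with earlier results of these data known. Named were the 6 members and, of the 2 probes nearest each member, those of miR-143-3p, a choice made after their values were seen. Lists of opposite arms, other mesenchymal microRNAs and markers of hepatocytes, epithelium, blood, endothelium and muscle could not be matched, since 0 entries of the reference tables carry an accession. Plots used matplotlib 3.10.9.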

Additional observations from a re-analysis of the deposited data

How the results depend on the processing

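All 18 alternatives for the all-probe comparison gave 0 probes past the threshold, with between 10 and 50 at an unadjusted p under 0.05, and no member passed under any alternative that held it. The difference of miR-145-5p (0.01) turned to -0.032 after quantile normalization, -0.12 with the deposit order as a block, and -0.24 and -0.0083 within the first 3 and the last 3 arrays of the deposit. Leaving out single arrays moved it between -0.19 and 0.17, below 0 without control replicate 1 (-0.19), metformin replicate 2 (-0.14) and metformin replicate 3 (-0.0100). miR-143-3p turned to 0.26 within the last 3 arrays and ranged from -0.77 to 0.37, turning without metformin replicate 1. It was -1.84 within the first 3 arrays. miR-199a-5p turned to -0.38 within the first 3 arrays and ranged from 0.08 to 0.60. The differences of miR-199a-3p (0.34 to 0.87), miR-199b-5p (0.11 to 0.23) and miR-214-3p (0.37 to 0.52) kept their sign when 1 array was left out, which was fixed in advance for miR-199a-3p and miR-214-3p, whose groups do not overlap. The unadjusted p of miR-214-3p was under 0.05 in 3 of 18 alternatives (quantile normalization, the brighter probes alone and the unmoderated test). That of miR-143-3p was so only within the first 3 arrays, where its 1 low array is the whole metformin group. The number of members whose groups do not overlap was 2 in the main fit, against 7.61% of all probes. After quantile normalization it was 1, against 8.09%. With single arrays removed it was 2 to 4, against between 13.3% and 20.4% of all probes. The 4 came without metformin replicate 1, where the share was 20.4%. These settings were chosen after seeing the data. Replicate numbers are shared by the groups, but no label says that they pair samples, and deviations of same-numbered arrays correlated with r of 0.01, -0.27 and -0.02 for numbers 1, 2 and 3. With the replicate block 0 probes passed and no member's call changed. In this balanced layout the block cannot change a difference, only its SE and p. The unadjusted limma p went from 0.077 to 0.144 for miR-214-3p and from 0.082 to 0.091 for miR-199a-3p. The cause of the changes between settings was not tested.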
